A study of Mus musculus with 12 samples.

Results

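Messenger RNA signals of 9 genes that mark B and T lymphocytes (Cd3e, Cd3d, Cd3g, Cd79a, Cd79b, Ms4a1, Ighm, Jchain and Pou2af1) were examined in mouse main olfactory epithelium (MOE). The genes were taken by symbol from the platform annotation, with no cut on their values, and are 9 of 19938 annotated genes. The list was drawn up with earlier results of these data known. They were measured by 11 of the 28944 experimental probe sets of the array, since Ighm had 3. Both groups were mice aged 6 months, with RNA of 2 animals pooled in each sample and 1 array per sample. The series' design states that each genotype held males and females in equal part, and the labels give no sex for single arrays. The 6 H2be-KO samples came from mice in which the coding sequence of H2be, a histone H2B variant of olfactory neurons, had been replaced by a membrane-targeted Gap43-mCherry sequence, and which therefore lacked the histone and carried the reporter. That line had been made through embryonic stem cells and crossed to C57Bl/6. The 6 WT samples carried neither change, and the labels do not say whether they were littermates. The tissue was dissected whole, so neurons, supporting cells, glands, vessels and resident or circulating leukocytes contributed to the same RNA, and fewer cells of a type cannot be told apart from less RNA per cell.

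Most proteins encoded by the 9 genes belong to the antigen receptors or the secreted antibodies of lymphocytes. MS4A1 and POU2AF1 are other proteins of B cells. CD3 epsilon, delta and gamma are the invariant chains that carry the T cell receptor to the surface and signal for it. CD79A and CD79B do the same for membrane immunoglobulin on B cells, MS4A1 (CD20) is a surface protein of mature B cells that plasma cells lose, Ighm encodes the mu heavy chain of IgM, JCHAIN joins IgM and IgA into polymers that epithelia can export, and POU2AF1 is a coactivator of octamer-binding factors in B cells. Antibody-secreting cells are known to lie near the glands of the nasal mucosa.

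All 12 arrays held the tissue's own markers: the mean log2 signal of 11 genes of olfactory neurons and their supporting and basal cells lay between 10.96 and 11.18. The H2be probe set lay between 11.51 and 11.84 in H2be-KO and between 11.63 and 12.12 in WT, a log2 difference of -0.24 (limma adjusted p = 0.753, n = 6 per group), and 3 of the 6 H2be-KO arrays lay under every WT array. Whether its probes lie inside the replaced sequence is not known here. The Y-linked gene Eif2s3y was at 3.71 or less in replicates 1 to 3 and at 10.5 or more in replicates 4 to 6 of both genotypes. Kdm5d and Uty split the same way, and the labels do not mention it. With the sexes in equal part in each genotype, pools of females in replicates 1 to 3 and of males in 4 to 6 would give this split. Of the 28151 probe sets whose mean log2 signal exceeded 5, 0 passed an adjusted p of 0.05 in limma. Without adjustment 1065 had a p under 0.05 with the higher mean in H2be-KO, and 498 with the higher mean in WT.

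The sequences before the start sites are shown for the genes of the 2 closest pairs described below, where an entry existed, and for 1 chain of the B cell receptor. RefSeq (GRCm38.p6) gave the start region of 6 of the 9 genes, and Cd79b, Ms4a1 and Ighm had no entry in the table used. Each line below is the 250 bases before the start, read 5′ to 3′ on the gene's own strand, with motif matches in capitals. Cd3e lay at chr9:45009612-45009861 on the minus strand, Pou2af1 at chr9:51213440-51213689 on the plus strand, Jchain at chr5:88527898-88528147 on the minus strand and Cd79a at chr7:24897247-24897496 on the plus strand.
Cd3e: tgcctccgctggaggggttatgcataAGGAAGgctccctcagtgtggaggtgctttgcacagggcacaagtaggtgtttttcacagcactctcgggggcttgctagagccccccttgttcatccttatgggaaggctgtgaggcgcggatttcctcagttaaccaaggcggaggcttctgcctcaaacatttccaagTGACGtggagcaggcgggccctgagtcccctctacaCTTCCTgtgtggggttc
Pou2af1: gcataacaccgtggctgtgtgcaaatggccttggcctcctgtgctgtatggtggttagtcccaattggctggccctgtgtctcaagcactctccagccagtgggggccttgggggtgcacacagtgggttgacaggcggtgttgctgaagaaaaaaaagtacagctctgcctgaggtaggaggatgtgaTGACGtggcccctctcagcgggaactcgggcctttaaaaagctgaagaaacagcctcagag
Jchain: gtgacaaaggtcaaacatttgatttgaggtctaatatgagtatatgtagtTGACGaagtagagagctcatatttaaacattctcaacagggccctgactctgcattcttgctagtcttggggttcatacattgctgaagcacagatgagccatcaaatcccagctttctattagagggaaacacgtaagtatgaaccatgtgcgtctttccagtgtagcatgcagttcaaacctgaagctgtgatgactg
Cd79a: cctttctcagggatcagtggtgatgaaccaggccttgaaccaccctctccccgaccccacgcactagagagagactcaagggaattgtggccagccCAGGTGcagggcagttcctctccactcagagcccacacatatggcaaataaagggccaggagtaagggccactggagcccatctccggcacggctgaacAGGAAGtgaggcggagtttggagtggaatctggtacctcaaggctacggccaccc

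Both strands were searched for 5 motifs, and no match overlapped another. The octamer ATGCAAAT, to which the partners of POU2AF1 bind, was in none of the 6 windows and in 1.60% of all 32851 windows of the table. CCCNNGGG, the only form of the EBF motif searched, was likewise in none of the 6 and in 11.8% of all. Sites with other letters would be missed, so this does not show that the windows lack EBF sites. The ETS core AGGAAG was in 3 of 6 (Cd79a, Cd3d, Cd3e) against 29.5% of all, and the E-box CAGGTG in 3 of 6 (Cd79a, Cd3g, Cd3d) against 17.2%. TGACG, a core of the cAMP response element, was in 3 of 6 (Jchain, Cd3e, Pou2af1) against 17.8% of all windows. In Cd3e and Pou2af1 it stood 53 and 61 bases before the start, and in Jchain 200 bases before. A match describes letters in a window and no binding was measured here.

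None of the 9 genes differed between H2be-KO and WT beyond the spread between arrays. Of the 11 probe sets, 9 (of 8 genes) exceeded a mean log2 signal of 5 and were tested with all other probe sets in limma. At an unadjusted p under 0.05, 0 of the 9 were higher in H2be-KO, beside 3.78% of all probe sets tested, and 0 were lower, beside 1.77%. Their adjusted p-values were 0.753 or above, and p-values beside single probe sets below are two-sided exact permutation p-values over the arrays. The ranges of the 6 H2be-KO and 6 WT arrays overlapped for all 11 probe sets, as they did for all but 0.178% of the probe sets tested. The median log2 difference (H2be-KO minus WT) of the tested member probe sets was 0.03, beside 0.02 over all probe sets tested. The level of 5 kept 28151 of the 28944 experimental probe sets, so passing it does not show that a gene was detected. Array medians lay between 7.84 and 7.90. The means of Cd3d (5.62), Ms4a1 (5.69), Cd3g (6.26), Pou2af1 (6.44), Cd79b (6.98) and Cd3e (7.83) lay under them. Those of the brightest and middle Ighm probe sets and Jchain lay above (9.72, 8.24 and 9.08).

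**Figure D1:**
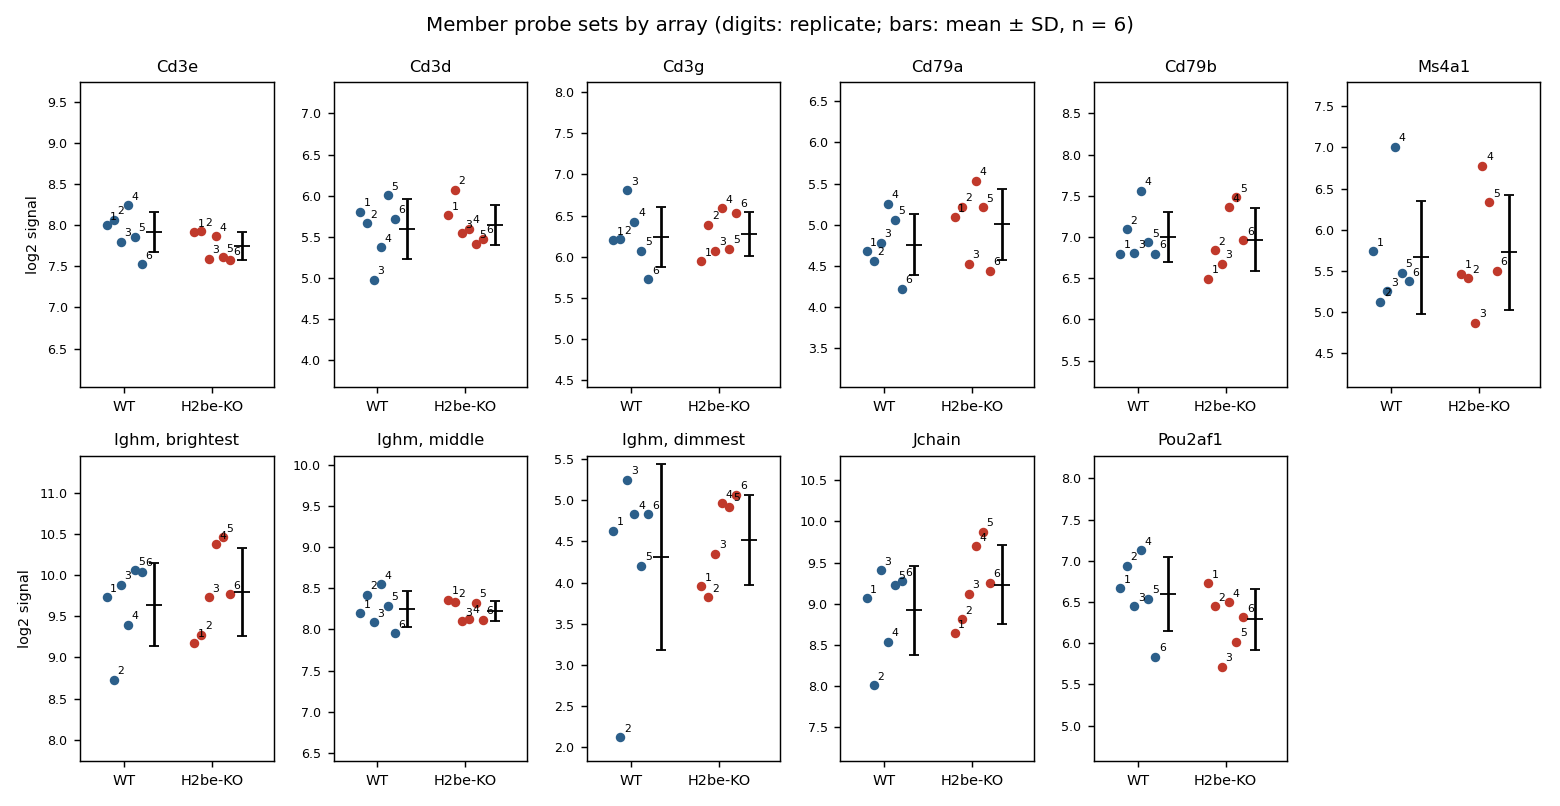
Log2 signal of each member probe set on the 6 WT (blue) and 6 H2be-KO (red) arrays, with replicate numbers as digits and the mean ± SD as bars; every panel spans the same number of log2 units. The genotypes overlapped in every panel, and Ms4a1 stood highest in WT replicate 4 (7.01) and H2be-KO replicates 4 (6.78) and 5 (6.33).

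Among the components of the B cell receptor, Cd79b lay between 6.49 and 7.48 in H2be-KO (median 6.90) and between 6.80 and 7.56 in WT (median 6.87). Its log2 difference was -0.03 (SE 0.17, exact permutation p = 0.868). The 2 highest arrays were WT replicate 4 and H2be-KO replicate 5. Cd79a, its partner chain, had a mean of 4.88, under the filter level of 5, and was described without a place in the test. It lay between 4.44 and 5.54 in H2be-KO (median 5.15) and between 4.22 and 5.26 in WT (median 4.73), with a difference of 0.24 (two-sided exact permutation p = 0.314, n = 6 per group).

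Ms4a1 had the widest spread of the tested member probe sets. It lay between 4.87 and 6.78 in H2be-KO (median 5.48) and between 5.12 and 7.01 in WT (median 5.43), and differed by 0.06 (SE 0.33, exact permutation p = 0.883). Its SD within genotypes was 0.69, above that of 99.1% of the probe sets tested, whose median was 0.20. The spread rested on few arrays: 9 of the 12 lay at 5.74 or less and the other 3 at 6.33 or more, with arrays of both genotypes among the 3. Those 3 were H2be-KO replicates 4 and 5 and WT replicate 4, all among the arrays high in Y-linked genes.

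The antibody genes were the next most variable. The Ighm probe set with the highest mean signal (10402864, called brightest here) lay between 9.18 and 10.5 in H2be-KO (median 9.75) and between 8.73 and 10.1 in WT (median 9.81), with a difference of 0.16 (SE 0.25, exact permutation p = 0.608). Jchain lay between 8.64 and 9.87 in H2be-KO (median 9.19) and between 8.01 and 9.41 in WT (median 9.15). Its difference of 0.31 (SE 0.25, exact permutation p = 0.310) was the largest positive one among the members and was smaller than the SD within genotypes, 0.51. It was 0.13 without WT replicate 2, 0.18 without H2be-KO replicate 5 and 0.11 without the 2 arrays with the highest neutrophil genes (H2be-KO replicate 5 and WT replicate 4), an alternative chosen after seeing the data. For both genes H2be-KO replicates 4 and 5 lay above every WT array and WT replicate 2 lay under every other array.

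The other 2 Ighm probe sets did not give the same picture. The middle one (10402991) lay between 8.10 and 8.36 in H2be-KO and between 7.96 and 8.55 in WT, with a difference of -0.02 (SE 0.10, exact permutation p = 0.814). The dimmest (10403069), with a mean of 4.41, lay between 3.83 and 5.07 in H2be-KO and between 2.12 and 5.25 in WT and was not tested in limma (difference 0.20, exact permutation p = 0.792, n = 6 per group). The SD within genotypes of the middle probe set was 0.18, under that of the brightest, 0.52.

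Of the T cell receptor chains, Cd3e lay between 7.57 and 7.93 in H2be-KO (median 7.74) and between 7.53 and 8.24 in WT (median 7.93). Its difference of -0.17 (SE 0.12, exact permutation p = 0.210) was in the direction of a lower signal in H2be-KO and within the spread. Cd3d lay between 5.42 and 6.07 in H2be-KO and between 4.98 and 6.01 in WT, with a difference of 0.05 (SE 0.16, exact permutation p = 0.788). Cd3g, whose gene stands beside Cd3d and Cd3e on chromosome 9, lay between 5.94 and 6.59 in H2be-KO and between 5.72 and 6.81 in WT, with a difference of 0.03 (SE 0.16, exact permutation p = 0.870).

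Pou2af1 had the largest negative difference of the members. It lay between 5.71 and 6.73 in H2be-KO (median 6.38) and between 5.84 and 7.13 in WT (median 6.60), a difference of -0.30 (SE 0.20, exact permutation p = 0.229), with 1 H2be-KO array under every WT array. Weighting the arrays by their overall fit in limma, or leaving out WT replicate 6, took the unadjusted p of Pou2af1 to 0.0438 and 0.0204 and that of Cd3e to 0.0455 and 0.0357, while no probe set passed the adjusted threshold. WT replicate 6 was the lowest WT array for both genes. Other arrays left out moved the differences the opposite way. Leaving out H2be-KO replicate 3 gave -0.19 for Pou2af1, and leaving out WT replicate 4 gave -0.20 for Pou2af1 and -0.10 for Cd3e. With both WT replicate 4 and H2be-KO replicate 5 left out, Pou2af1 was at -0.14 and Cd3e at -0.076.

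**Figure D2:**
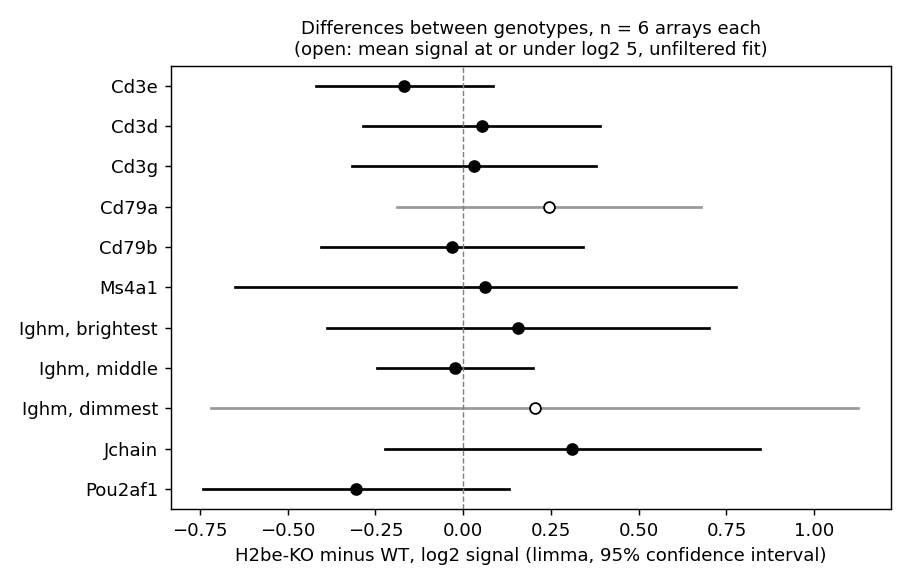
Log2 difference (H2be-KO minus WT) of each member probe set with its 95% confidence interval from limma, n = 6 arrays per genotype; open points mark the 2 probe sets with a mean at or under 5, taken from the fit without a filter. All 11 intervals cross 0, and that of Ms4a1 reached from -0.65 to 0.78.

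Within arrays low or high in Y-linked genes, with 3 of each genotype, the differences of 6 of the 11 member probe sets took opposite signs. Cd3d differed by 0.31 in the low arrays and -0.20 in the high ones, Cd3g by -0.27 and 0.33, Cd79b by -0.23 and 0.17, and Ms4a1 by -0.13 and 0.25. The brightest Ighm probe set differed by -0.054 and 0.37 and the middle one by 0.029 and -0.075. The other 5 kept their sign: Pou2af1 (-0.39 and -0.22), Cd3e (-0.14 and -0.19), Cd79a (0.27 and 0.22), Jchain (0.029 and 0.59) and the dimmest Ighm probe set (0.045 and 0.36). The difference between the sets was not tested.

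The SD within genotypes was larger than the difference between them for all 11 probe sets, and the variation between arrays was not shared by all members. Correlations were taken over the 12 arrays after each genotype's mean had been removed, for all 55 pairs of the 11 probe sets. Of these, 7 passed an adjusted p of 0.05 by Pearson's r and 4 by Spearman's rho (two-sided permutation tests), all with a positive sign, and the median r was 0.25. The pairs fell into 3 separate groups: the brightest and dimmest Ighm probe sets with Jchain, Cd79b with Ms4a1, and Cd3e with Pou2af1 and the middle Ighm probe set.

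**Figure D3:**
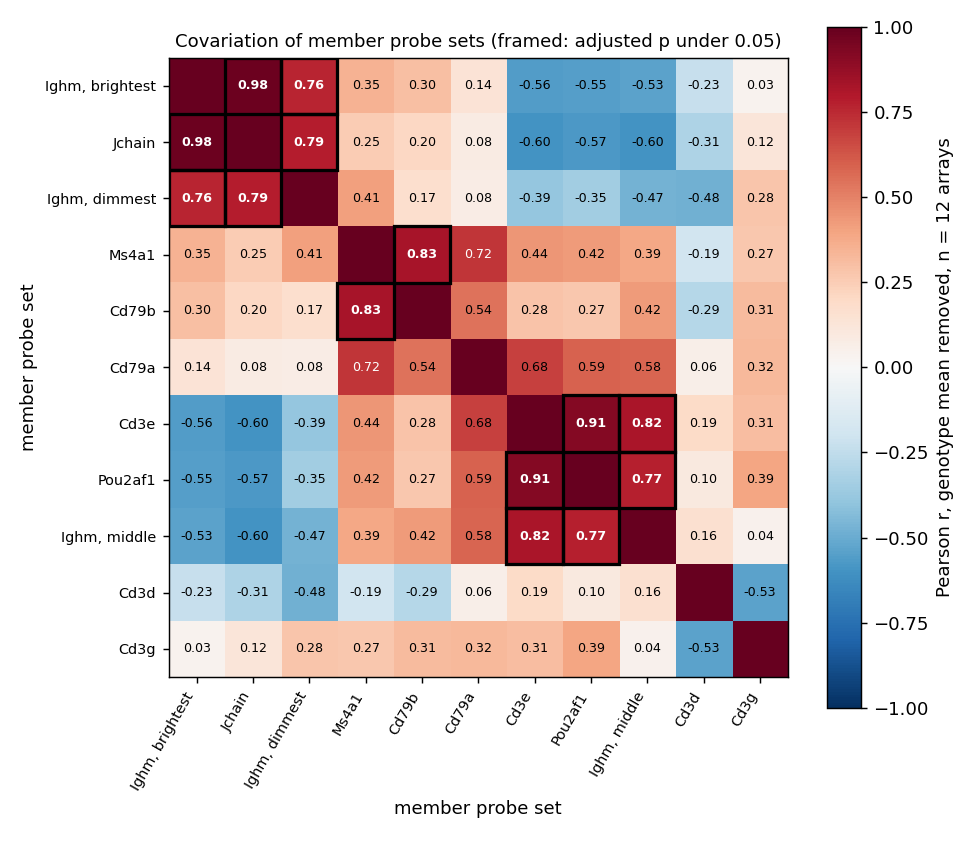
Pearson r between member probe sets over 12 arrays with genotype means removed; framed bold cells passed an adjusted p of 0.05 over 55 pairs. The framed cells form 3 blocks, led by Ighm (brightest) with Jchain (0.98), Cd3e with Pou2af1 (0.91) and Cd79b with Ms4a1 (0.83), while Cd3d and Cd3g have none.

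The closest pair was that of the antibody genes. The brightest Ighm probe set and Jchain had r = 0.98 and rho = 0.95 over 12 arrays (permutation p = 1e-05 for each, the smallest that 100000 resamples can give, adjusted p = 0.00055). Without the 2 arrays farthest from the Ighm median (H2be-KO replicate 5 and WT replicate 2) r was 0.95, and within the arrays low and high in Y-linked genes it was 0.98 in both. The 5 probe sets most like the brightest Ighm probe set were Jchain, Axl, Olfr834, Txndc11 and Igha (r from 0.98 to 0.89). Those most like Jchain were the brightest Ighm probe set, Olfr834, Islr, Irf1 and Igha (r from 0.98 to 0.87). Igha encodes the heavy chain of IgA. Olfr834, an olfactory receptor gene with a mean of 5.04, ranked above Igha in both lists. The mean of 24 immunoglobulin locus probe sets, none of them Ighm, followed the brightest Ighm probe set with r = 0.97 and Jchain with r = 0.92 (permutation adjusted p = 0.00198 for both, over 198 relations). The mean of 15 plasma cell probe sets, 2 of which are Igha and belong to both lists, followed with r = 0.87 and 0.88. Without H2be-KO replicate 5 and WT replicate 2 these fell to 0.76 and 0.77. By rho the relation of the plasma cell list with Ighm (0.76) did not pass, and that with Jchain (0.85) did (permutation adjusted p = 0.0624 and 0.0174).

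The dimmest Ighm probe set joined this pair on the strength of few arrays. Its r was 0.76 with the brightest and 0.79 with Jchain (permutation adjusted p = 0.0200 for both), and rho (0.55 and 0.67) did not pass. Within the arrays low in Y-linked genes r was 0.95 and 0.98, and within the high ones -0.50 and -0.47. WT replicate 2, at 2.12, lay far under the others. The 5 probe sets most like the dimmest Ighm probe set were Mup5, Rpl34, Gjb2, Cfap20dc and Chn2 (r from 0.95 to 0.91).

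The membrane proteins of B cells had no relation to the antibody genes that passed the adjustment. Ms4a1 and Cd79b had r = 0.83 (permutation adjusted p = 0.0200), but rho was 0.59 (adjusted p = 0.228) and r fell to 0.67 without H2be-KO replicate 5 and WT replicate 4. It was 0.94 within the arrays high in Y-linked genes and -0.39 within the low ones, so the pair's relation did not hold among the latter 6. Cd79a had r = 0.72 with Ms4a1 (permutation adjusted p = 0.0547) and 0.54 with Cd79b. Between Ms4a1 and the brightest Ighm probe set r was 0.35, and between Ms4a1 and Jchain 0.25. Without H2be-KO replicate 4 and WT replicate 4 these rose to 0.55 and 0.54. Within the arrays low and high in Y-linked genes r was 0.06 and -0.22 with Ighm, and 0.10 and -0.36 with Jchain. Whether these r differ from those of the other pairs was not tested.

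The arrays in which Ms4a1 and Cd79b stood high also stood high in genes of other white blood cells. The mean of 22 other B cell probe sets followed Ms4a1 with r = 0.94 (permutation adjusted p = 0.00528; 0.89 without H2be-KO replicate 4 and WT replicate 4) and Cd79b with r = 0.87. The mean of 12 leukocyte genes followed them with r = 0.90 and 0.88, and that of 15 neutrophil genes with r = 0.83 and 0.89. Without H2be-KO replicate 5 and WT replicate 4 the 3 values of Cd79b fell to 0.66, 0.70 and 0.72. Its rho was 0.62 with the B cell list, 0.69 with the leukocyte genes and 0.78 with the neutrophil genes, of which only the last passed the adjustment (permutation adjusted p = 0.200, 0.115 and 0.0491). The rho of Ms4a1 passed with the B cell list (0.87) and the leukocyte genes (0.85, permutation adjusted p = 0.0156 and 0.0176). With the neutrophil genes the rho of Ms4a1 was 0.75 and did not pass (permutation adjusted p = 0.0635). All 15 neutrophil genes were above the level of 5, and their mean lay between 7.47 and 9.24 in H2be-KO and between 7.15 and 9.18 in WT. Ly6g, a surface marker of neutrophils, was at 7.52 in H2be-KO replicate 5, 6.96 in WT replicate 4 and 6.65 in H2be-KO replicate 4, and at 6.18 or less in the other 9 arrays. All 3 arrays named for Ly6g were high in Y-linked genes. Without H2be-KO replicate 5 and WT replicate 4, the differences were 0.21 for Ms4a1 and -0.02 for Cd79b, and no member was called. In each genotype the means of Ms4a1 and Cd79b were higher in the arrays high in Y-linked genes than in the low ones. Removing genotype means leaves that difference between the sets in r. The relations with these lists were not taken within each set, so whether they hold among the low arrays was not tested. The part of other blood cells in the signals of Ms4a1 and Cd79b was not tested.

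The 5 probe sets most like each of these genes included some genes of white blood cells. For Cd79b they were Nckap1l, Coro1a, Ncf1, Arhgap30 and Flna (r from 0.92 to 0.91), of which Nckap1l, Coro1a and Ncf1 act in the actin cytoskeleton or the oxidase of blood cells. For Ms4a1 they were Tyrobp, Ehbp1l1, Pdgfrb, Ikzf3 and Cd52 (r from 0.95 to 0.92), with Tyrobp an adaptor of myeloid and natural killer cells and Ikzf3 a lymphoid transcription factor. For Cd79a they were Nos3, Zfp646, Dok2, Amigo3 and Cd22 (r from 0.95 to 0.90), the last a B cell surface receptor.

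**Figure D4:**
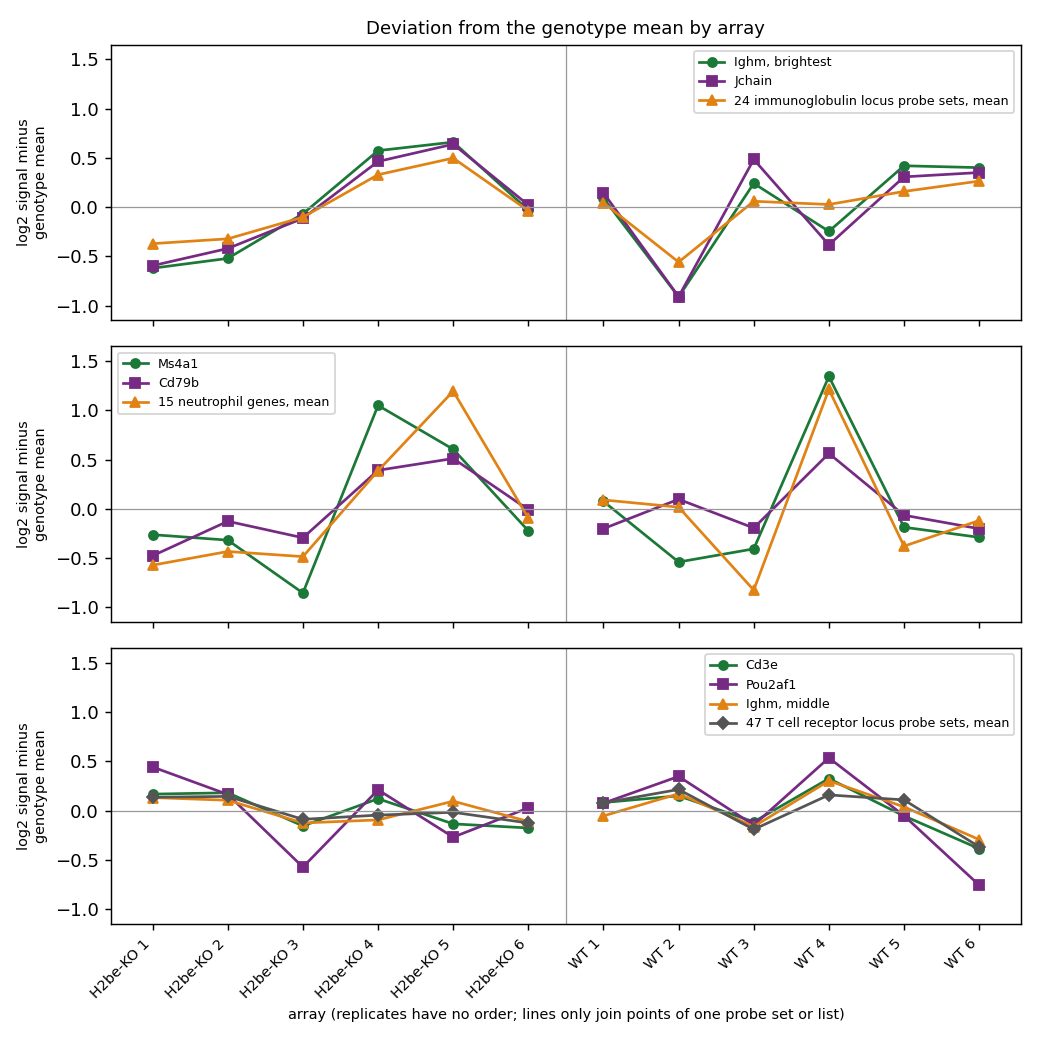
Log2 signal minus the genotype mean on each of the 12 arrays for the 3 groups of member probe sets, with the mean of a marker list in each panel. Ighm and Jchain were lowest in WT replicate 2, Ms4a1 and Cd79b peaked in H2be-KO replicates 4 and 5 and WT replicate 4 with the neutrophil genes, and Cd3e, Pou2af1 and the middle Ighm probe set lay lowest in WT replicate 6.

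Cd3e and Pou2af1, markers of different lymphocytes, had the second closest relation. Their r was 0.91 and rho 0.89 over 12 arrays (permutation adjusted p = 0.00055 and 0.00633), with r = 0.82 without WT replicates 4 and 6. Within the arrays low and high in Y-linked genes it was 0.94 and 0.95. The middle Ighm probe set had r = 0.82 with Cd3e and 0.77 with Pou2af1 (permutation adjusted p = 0.0200 for both), which fell to 0.58 and 0.54 without WT replicates 4 and 6. It had r = -0.53 with the brightest probe set of the same gene, so probe sets that carry 1 symbol fell into different groups.

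Cd3e had no relation to the other CD3 chains that passed the adjustment. Its r was 0.19 with Cd3d (permutation adjusted p = 0.686) and 0.31 with Cd3g (adjusted p = 0.530), and Cd3d and Cd3g had r = -0.53. These values differed between sets of arrays: with Cd3d r was 0.80 within the arrays low in Y-linked genes and -0.40 within the high ones, and with Cd3g -0.35 and 0.84. Without WT replicates 4 and 6 r was 0.58 with Cd3d and -0.15 with Cd3g, so no common relation was settled. The mean of 27 other T cell probe sets had r = 0.69 with Cd3e, 0.43 with Cd3d and 0.03 with Cd3g, none of which passed the adjustment. The mean of 47 probe sets of the T cell receptor loci did follow Cd3e (r = 0.86, permutation adjusted p = 0.00838), Pou2af1 (r = 0.80) and the middle Ighm probe set (r = 0.89).

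The 3 probe sets of this last group were followed by a large number of probe sets on the array. Of 20016 probe sets with 1 gene symbol, 1109 (5.54%) had r above 0.8 with Cd3e, 1018 with Pou2af1 and 832 with the middle Ighm probe set, against 130 for Ms4a1, 101 for Cd79b, 57 for Jchain, 31 for Cd3d and 12 for Cd3g. The first principal component of all probe sets, after removal of the genotype means, held 30.8% of that variance and followed Cd3e with r = 0.88, Pou2af1 with 0.84 and the middle Ighm probe set with 0.90 (permutation adjusted p = 0.00594, 0.00838 and 0.00566). The brightest Ighm probe set and Jchain had r = -0.69 and -0.72 with it, and Ms4a1 and Cd3g 0.18 and 0.12, none of which passed the adjustment.

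The nearest probe sets of the group were not lymphocyte genes for the most part. For Cd3e they were Oc90, Crygc, Slc25a45, Lrrc3 and Cdc42ep5 (r from 0.99 to 0.96), where Oc90 encodes a protein of the otoconia of the inner ear and Crygc a crystallin of the lens. For Pou2af1 they were Adamtsl5, Il21, Grcc10, Eef2kmt and Nccrp1 (r from 0.97 to 0.96), with Il21 a cytokine of T cells. The middle Ighm probe set was nearest to Olfr975, Mir598, Ceacam19, Galnt9 and Nkx1-2 (r from 0.97 to 0.96). What this shared variation measures was not tested.

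**Figure D5:**
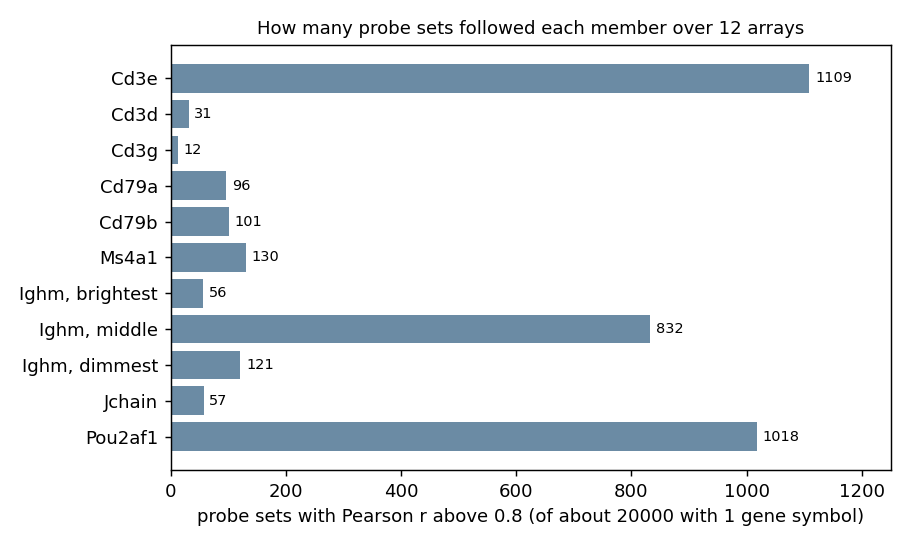
Number of probe sets with 1 gene symbol whose Pearson r with each member probe set was above 0.8 over 12 arrays, genotype means removed. Cd3e (1109), Pou2af1 (1018) and the middle Ighm probe set (832) had far more than Cd3g (12) or Cd3d (31).

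Cd3d and Cd3g had no relation to another member that passed the adjustment. The probe sets most like Cd3d were Kcnk9, Rassf4, Ficd, Palm and Leng9 (r from 0.93 to 0.87), and those most like Cd3g were Fam166a, Polr1e, Ferd3l, Olfm5 and Iscu (r from 0.89 to 0.85). None of these 10 was on the T cell list.

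Other genes of the same cells gave no adjusted call between genotypes either. Counts called higher or lower in the lists below rest on an unadjusted limma p under 0.05, while the p-values beside single genes are from the exact permutation test. Of 27 other T cell probe sets, 1 had an unadjusted limma p under 0.05, with the lower mean in H2be-KO, and the list had a median difference of -0.04. It was Themis, a T cell signalling protein, at 6.43 to 6.81 in H2be-KO and 6.60 to 7.20 in WT (difference -0.32, SE 0.11, exact permutation p = 0.0260, limma adjusted p = 0.753). Of 47 T cell receptor locus probe sets 0 were called in either direction, and of 14 natural killer and cytotoxic probe sets 1 was lower, Prf1, which encodes perforin (difference -0.40, SE 0.17, exact permutation p = 0.0649, limma adjusted p = 0.753).

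Of 22 other B cell probe sets, 1 was higher and 1 lower, with a median difference of -0.03. They were Blnk, an adaptor of B cell receptor signalling (difference 0.22, SE 0.09, exact permutation p = 0.0303), and Cxcr5, the receptor that guides B cells to follicles (-0.46, SE 0.21, exact permutation p = 0.0779), with limma adjusted p = 0.753 for both. Of 10 genes of early B cells 0 were called, and 1 of the 10 differences was positive, beside 56.2% of all probe sets tested. These genes can move together over the arrays and are no independent count.

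Of 15 plasma cell probe sets, 1 was higher and 1 lower. Irf4, a transcription factor of plasma cells and activated lymphocytes, was at 4.76 to 5.78 in H2be-KO and 5.66 to 6.15 in WT, with 5 of the 6 H2be-KO arrays under every WT array. Its difference was -0.57 (SE 0.17, exact permutation p = 0.0152, limma adjusted p = 0.753, n = 6 per group). Mzb1, a chaperone of antibody-secreting cells, differed by 0.27 (SE 0.12, exact permutation p = 0.0519), the opposite sign. The difference of Mzb1 was 0.17 without WT replicate 1, its lowest array, and then had no unadjusted call.

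The 24 immunoglobulin locus probe sets held 18 positive differences, with a median of 0.16 beside 0.02 over all probe sets tested, of which 56.2% were positive. At an unadjusted p under 0.05, 1 was higher, the kappa variable segment Igkv8-30, at 5.52 to 6.12 in H2be-KO and 5.32 to 5.54 in WT (difference 0.31, SE 0.10, exact permutation p = 0.00433, limma adjusted p = 0.753), and 0 were lower. Variable segments share sequence, and 13 of the 24 carried several symbols, so their signals cannot be assigned to 1 segment each. These 24 moved together over the arrays and are no independent count. The list also rested on single arrays, as an alternative chosen after seeing the data showed: without WT replicate 2 the median difference was 0.02 with 14 positive, without H2be-KO replicate 5 it was 0.053 with 15, and without H2be-KO replicate 4 it was 0.064 with 16.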

How the data were processed

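RNA of whole MOE was isolated with Trizol and RNeasy columns and measured on the Affymetrix Mouse Gene 1.0 ST platform. Per the study's methods and the labels, the authors summarised the scans with IterPLIER and normalised them by sketch-quantile in Affymetrix Expression Console (versions not stated there). Values were deposited as log2 signals of 35556 probe sets. They were normalised between arrays, so a change common to most transcripts would have been removed. Array medians lay between 7.84 and 7.90, and precision is limited by how many arrays there are.

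Each sample's title gave its genotype, and nothing beyond the titles and the study's count of animals says that samples were independent, so p-values measure the spread between these samples. Symbols were those of the platform annotation. The 6612 control probe sets were left out, and the 28151 with a mean above 5 were fitted in limma 3.58.1 (R 4.3.3) with genotype as the only term, lmFit and eBayes, and Benjamini-Hochberg adjustment. A 2-sided exact permutation test over the 924 choices of 6 of 12 arrays was added for single probe sets. Correlations used values less the genotype mean and 100000 permutations, adjusted over 55 pairs or 198 relations of members and lists. The fit and the correlations were tested on simulated data.

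All members are named, with the 5 probe sets most like each, up to 4 genes of lowest p per list, and H2be. Members, lists and motifs were chosen with earlier results of these data known. Ly6g and the probe set counts of the arrays that stood high were described after their values were seen. Replicate numbers 1 to 6 occur in both genotypes. The same-number correlations of residuals lay between 0.03 and 0.59, and 2 of the 6 were not above 0.1, the level asked of every pair, so the numbers were not taken as pairs. The correlation permutations treat the 12 arrays as exchangeable, which the split in Y-linked genes and any structure shared by same-numbered arrays would breach. Filters, scalings, covariates, weights and each array left out were tried as alternatives.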

Additional observations from a re-analysis of the deposited data

Results flagged for a closer look

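In groups of 6 arrays, 3 values stood apart from the others of their genotype by more than Dixon's 95% critical share of the range. Ms4a1 was at 7.01 in WT replicate 4, with a gap of 0.67 of the range. The dimmest Ighm probe set was at 2.12 in WT replicate 2, with a gap of 0.67. Mzb1 was at 5.83 in WT replicate 1, with a gap of 0.63. In 36 groups examined, chance gives about 1 in 20, or 1.8 flags.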

How the results depend on the processing

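No probe set passed an adjusted p of 0.05 under any alternative. At an unadjusted p under 0.05, the counts over all probe sets (1065 higher, 498 lower) became 2694 and 1405 with array weights, 2039 and 951 with the replicate block, and 490 and 228 without the 2 arrays with the highest neutrophil genes (an alternative chosen after seeing the data), and lower calls 900 with quantile normalization. The share of calls that were higher was 68.1%, against 47.8% with quantile normalization and 53.8% with median centring. Leaving out 1 array gave 513 to 2265 higher and 313 to 1552 lower calls: H2be-KO replicates 3 (589 higher), 4 (2235 higher) and 5 (513 higher, 323 lower), WT replicate 4 (313 lower) and WT replicate 6 (2265 higher, 1552 lower) moved a count by over 1.5 times. The count of members called lower was 2 with array weights and 0 to 2 with 1 array left out. Signs turned for Cd3d (-0.053 with array weights, -0.0068 with quantile normalization), Cd79b (0.034 with array weights) and, without the 2 arrays high in neutrophil genes, for Ighm brightest (-0.026) and middle (0.018). With 1 array left out the differences ranged from -0.070 to 0.14 for Cd3d, -0.072 to 0.15 for Cd3g, -0.13 to 0.081 for Cd79b, -0.15 to 0.33 for Ms4a1, -0.027 to 0.28 for Ighm brightest and -0.082 to 0.037 for Ighm middle, so these have no settled sign; the cause was not tested. The number of member pairs that passed ranged from 4 to 8 over the arrays left out (4 without WT replicate 4 and 4 without WT replicate 6) and was 8 without the 2 arrays high in neutrophil genes. Jchain ranged from 0.13 to 0.43 with 1 array left out. Of the 10 list genes with an unadjusted call, Irf4 and Themis kept theirs under every alternative run, Igkv8-30 lost it under 1 of 21, and of 22 alternatives Blnk and Gap43 lost it under 6, Prf1 under 7, Cxcr5 under 9 and Mzb1, Siglech and Top2a under 11 each. The replicate numbers were not taken as pairs: 8 of 12 arrays correlated best with their own number, a hint from the data and not the design, and the block called no member. With the block the SE fell from 0.33 to 0.15 for Ms4a1 and from 0.12 to 0.076 for Cd3e, and stayed at 0.16 for Cd3g. The unadjusted limma p was then 0.0532 for Cd3e and 0.0747 for Pou2af1.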

Other observations

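Other cell types of the dissected tissue were described by their lists, all without an adjusted call. Of 13 probe sets of IgA transport and mucosal homing 0 were called at an unadjusted p under 0.05, with Itgb7, an integrin chain of gut-homing lymphocytes, at a log2 difference (H2be-KO minus WT) of -0.17 and Pigr, the receptor that carries JCHAIN-bound antibody across epithelia, at -0.23. Pigr lay between 8.89 and 10.3. Of 12 lymphoid stroma and 12 leukocyte probe sets 0 were called, and of 19 macrophage and dendritic cell probe sets 1 was lower, Siglech, a marker of plasmacytoid dendritic cells (-0.27, exact permutation p = 0.0736, limma adjusted p = 0.753). Of 15 neutrophil, 9 erythroid, 9 mast cell and basophil and 9 bone probe sets 0 were called. All 9 bone differences were positive, beside 56.2% of all probe sets tested, with a median of 0.10 beside 0.02. Genes of a list can move together over the arrays, so this is no independent count. Dmp1, a matrix protein of osteocytes, was at 0.40 (exact permutation p = 0.134). Of 7 proliferation probe sets 1 was higher, Top2a (0.32, exact permutation p = 0.0801, limma adjusted p = 0.753). Of 11 olfactory probe sets 1 was higher, Gap43, a growth cone protein of immature neurons (0.25, exact permutation p = 0.0455, limma adjusted p = 0.753). The H2be-KO allele itself carries the start of the Gap43 coding sequence. Whether the Gap43 probes lie in that part is not known here, and its share in the signal was not tested.

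Several lists followed members beyond those of their own cell type. Of 198 relations of member probe sets with lists and with the first component, 29 passed an adjusted permutation p of 0.05. The mean of 10 early B cell genes followed Cd3e (r = 0.84), Pou2af1 (0.84), the middle Ighm probe set (0.78) and Cd79a (0.74), and that of 14 natural killer and cytotoxic genes followed Cd3e (0.81), Pou2af1 (0.83) and the middle Ighm probe set (0.84), each over 12 arrays with genotype means removed. None of the early B cell relations passed by rho (permutation adjusted p from 0.0564 to 0.0765). Without the 2 arrays farthest from each member's median their r was 0.58, 0.79, 0.45 and 0.60, in the order named. Cd3e, Pou2af1 and the middle Ighm probe set were also those that followed the first component. The IgA transport and homing genes followed Ms4a1 (r = 0.80), though rho, 0.59, did not pass (permutation adjusted p = 0.221). No relation of a member with the olfactory list passed, the strongest being r = -0.57 for Cd79a. Relations of members with lists were not taken within the arrays low or high in Y-linked genes.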
